A study of Mus musculus with 7 samples.

Results

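The BCL2 family decides whether a cell opens the outer membrane of its mitochondria and dies. The 10 family genes described here were chosen by gene symbol from a count table of 48440 genes: the survival genes *Bcl2*, *Bcl2l1* and *Mcl1*, the pore formers *Bax* and *Bak1*, and the BH3-only genes *Bad*, *Bid*, *Bbc3*, *Pmaip1* and *Bcl2l11*. All 10 were found, and all 10 passed the filter on low counts. They were measured by bulk RNA-seq in mouse retina at embryonic day 16 (E16), in 7 libraries that each held pooled retinas. The single WT library carried Chx10Cre alone, the 3 Het libraries were Chx10-Cre;Ptbp1lox/WT and the 3 KO libraries were Chx10-Cre;Ptbp1lox/lox, so that every library carried the Cre. In these mice Cre is made in retinal progenitors. The stretch of *Ptbp1* between the loxP sites holds its promoter and first exon, so cells that do not descend from those progenitors keep the gene. WT has no replicate, and its values carry no error. Total counts per library were 148690857 (WT), 171117305, 120593979 and 152970301 (Het1, Het2, Het3) and 133765170, 131005766 and 129073579 (KO1, KO2, KO3).

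Survival proteins of the family hold the pore formers BAX and BAK in check at the mitochondrial membrane. BH3-only proteins, many of them made in answer to stress or loss of growth factors, bind the survival proteins or the pore formers and so release the pore, after which cytochrome c leaves the mitochondria and caspases are activated. In the developing retina this pathway removes part of the newborn neurons, and mice that lack *Bax* keep many cells that would otherwise die. *Ptbp1* encodes an RNA-binding protein that represses the inclusion of neuronal exons, among them a short exon of *Bak1*.

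*Ptbp1* itself had 381 CPM (WT), 210, 219 and 234 CPM (Het) and 27.9, 6.04 and 46.9 CPM (KO), where CPM are counts per 1000000 after TMM normalization and the Het and KO values, here and below, stand in the order of the library numbers. Each KO library was below each Het library. Its paralog *Ptbp2* was at 338 CPM (WT), 428, 455 and 430 CPM (Het) and 529, 550 and 538 CPM (KO), with all of KO above all of Het.

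Between Het and KO, no member of the family was called, that is, passed both an adjusted p of 0.05 in edgeR's quasi-likelihood test and an absolute log2 fold change of 0.26. The count was 0 of 10 members, beside 7.22% of the 20019 genes tested, 4.01% called higher and 3.21% called lower in KO. At an unadjusted edgeR p below 0.05 there were 4 members, *Bcl2*, *Bax*, *Bad* and *Pmaip1*, beside 29.7% of all genes. By edgeR's quasi-likelihood test *Bax* was above that limit without Het1 (0.0699), Het3 (0.0547) or KO2 (0.0931). *Bad* was above it without Het1 (0.0949), Het3 (0.114), KO1 (0.0823), KO2 (0.0749) or KO3 (0.0599), so that the count was 2 without Het1, Het3 or KO2. In the same 4 members Het and KO lay apart without overlap, beside 36.3% of all genes, with *Bcl2* lower in KO and the other 3 higher. An adjusted p below 0.05 at any fold was reached by 1 member, *Bcl2*, beside 11.1% of all genes, and DESeq2 called 1 member, *Pmaip1*, beside 11.6% of the genes to which it gave an adjusted p. The median log2 fold change of the members was 0.024, and that of all genes tested -0.0047. For 8 of the 10 members the 95% interval of the log2 fold change lay within the fold limit on both sides, the exceptions being *Bcl2* and *Pmaip1*. In bulk tissue, fewer cells of a type and less RNA per cell cannot be told apart.

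**Figure D1:**
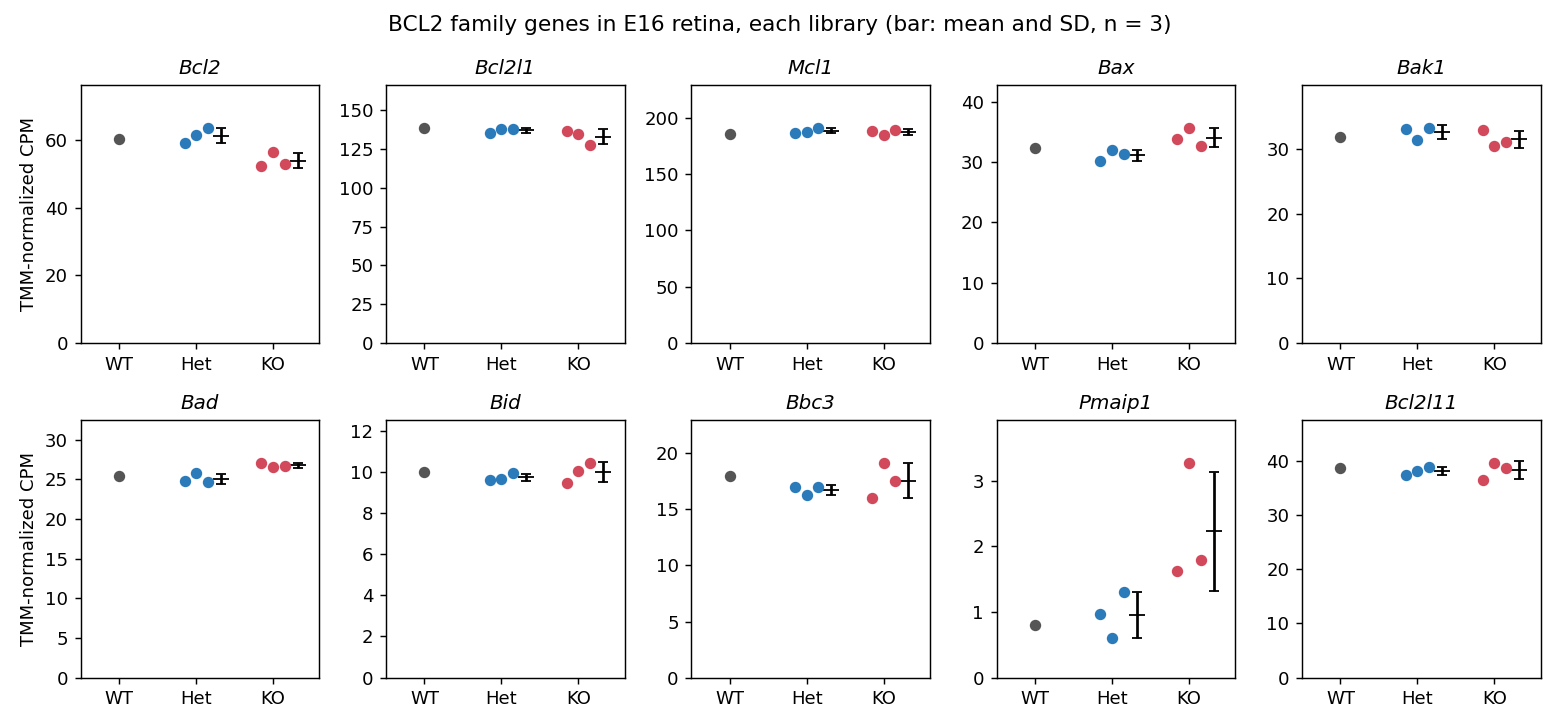
Expression of the 10 BCL2 family genes in each library, as TMM-normalized CPM on axes that start at 0, with the genotype along the horizontal axis. Points are libraries, and the bar beside the Het and KO points is the mean with its SD (n = 3); KO libraries lie below Het in *Bcl2* and above Het in *Bax*, *Bad* and *Pmaip1*, and overlap with Het in the other 6 genes.

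*Bcl2* (ENSMUSG00000057329.7; GRCm38 chromosome 1, 106538178 to 106714274, minus strand), the founding survival gene of the family, was at 60.4 CPM (WT), 59.0, 61.4 and 63.6 CPM (Het) and 52.3, 56.4 and 52.9 CPM (KO). All 3 KO libraries were below all 3 Het libraries, and WT lay within the Het range. Het averaged 61.3 ± 2.27 CPM and KO 53.8 ± 2.25 CPM (SD, n = 3 each), or 87.8% of Het. The log2 fold change was -0.19 (standard error 0.0421, 95% interval -0.29 to -0.087, adjusted p = 0.0380 by edgeR's quasi-likelihood test), which is under the fold limit. Its edgeR adjusted p was above the limit without Het2 (0.116), Het3 (0.126), KO1 (0.0779) or KO3 (0.0756), and over all 16 alternatives to the processing the adjusted p ranged from 0.00406 to 1, the last from glmTreat, which tests against the fold limit; the highest of the others was 0.126. Since *Bcl2* had the smallest edgeR p among the members, the 3 tested genes whose centred log2 CPM ran closest to it over the 7 libraries were found, and these were *Fbxl2*, *Sgsm2* and *Asnsd1*, at root mean square distances of 0.0175, 0.0222 and 0.0229, where *Bcl2* itself varied by 0.1 around its mean.

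*Bcl2l1* (ENSMUSG00000007659.18; chromosome 2, 152780668 to 152831728, minus strand) encodes BCL-XL, and its shorter splice form the death-promoting BCL-XS. It was at 139 CPM (WT), 135, 138 and 138 CPM (Het) and 137, 135 and 128 CPM (KO). KO1 lay within the Het range, and the log2 fold change was -0.043 with a 95% interval of -0.13 to 0.040. Without KO3 it was -0.011. The most abundant member per length, *Mcl1* (ENSMUSG00000038612.16; chromosome 3, 95658788 to 95663176, plus strand), encodes a short-lived survival protein. It had 186 CPM (WT), 187, 188 and 191 CPM (Het) and 188, 185 and 189.8 CPM (KO). The groups overlapped, and the interval of the log2 fold change, -0.074 to 0.057, was the narrowest of the 10 members. Annotated transcripts with a complete coding part differ in length, from 209 to 233 codons in *Bcl2l1* and from 285 to 331 codons in *Mcl1*. The annotation used does not name any of them as BCL-XS, and the form of 209 codons was not matched to it. Counts per gene add up all transcripts.

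*Bax* (ENSMUSG00000003873.11; chromosome 7, 45461697 to 45466898, minus strand), which encodes the pore former that moves to mitochondria on activation, was at 32.3 CPM (WT), 30.2, 32.01 and 31.3 CPM (Het) and 33.9, 35.7 and 32.7 CPM (KO). The KO libraries all exceeded the Het libraries, and WT was above all Het libraries as well. Het averaged 31.1 ± 0.933 CPM and KO 34.1 ± 1.51 CPM (SD, n = 3 each). *Bax* did not pass the test, at a log2 fold change of 0.13 (standard error 0.0441, 95% interval 0.024 to 0.23, edgeR adjusted p = 0.107). A gene model on the same strand, *Gm45808*, shares 192 exonic bases with it (12.2% of its exons), so a part of its counts is uncertain.

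*Bak1* (ENSMUSG00000057789.13; chromosome 17, 27019810 to 27029009, minus strand) encodes BAK, the pore former that resides in the mitochondrial membrane. It was at 31.9 CPM (WT), 33.1, 31.4 and 33.2 CPM (Het) and 32.9, 30.4 and 31.1 CPM (KO). The Het and KO libraries overlapped, and the means were 32.6 ± 1.06 and 31.5 ± 1.31 CPM (SD, n = 3 each). The log2 fold change was -0.049 (standard error 0.0439, edgeR adjusted p = 0.488), and its 95% interval, -0.15 to 0.056, corresponds to between -10.1% and 3.94% of change in KO. Leaving out KO2 gave a log2 fold change of -0.025, and leaving out KO1 gave -0.082. The annotation has 4 transcripts of *Bak1*. The short exon lies at chr17:27021663-27021682 (GRCm38, minus strand) and has 20 bases, which leaves a remainder of 2 on division by 3 and so shifts the reading frame. It is present in Bak1-201, annotated as a target of nonsense-mediated decay with an open reading frame of 151 codons, and absent from Bak1-202, which encodes the full protein of 209 codons. Around it are introns of 756 bases (upstream) and 315 bases (downstream). The joined transcript sequences are shown from 20 bases before to 20 bases after the exon, in the sense of the transcript and from the GENCODE transcripts, since reads over these junctions are what would tell the isoforms apart. Capitals mark the exon.
Bak1-201: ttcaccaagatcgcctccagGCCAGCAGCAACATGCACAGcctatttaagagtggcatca
Bak1-202: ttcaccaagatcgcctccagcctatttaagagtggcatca
A count per gene adds up these transcripts, so the level of *Bak1* given here says nothing on the share that holds the exon, and exon use was not analysed here.

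**Figure D2:**
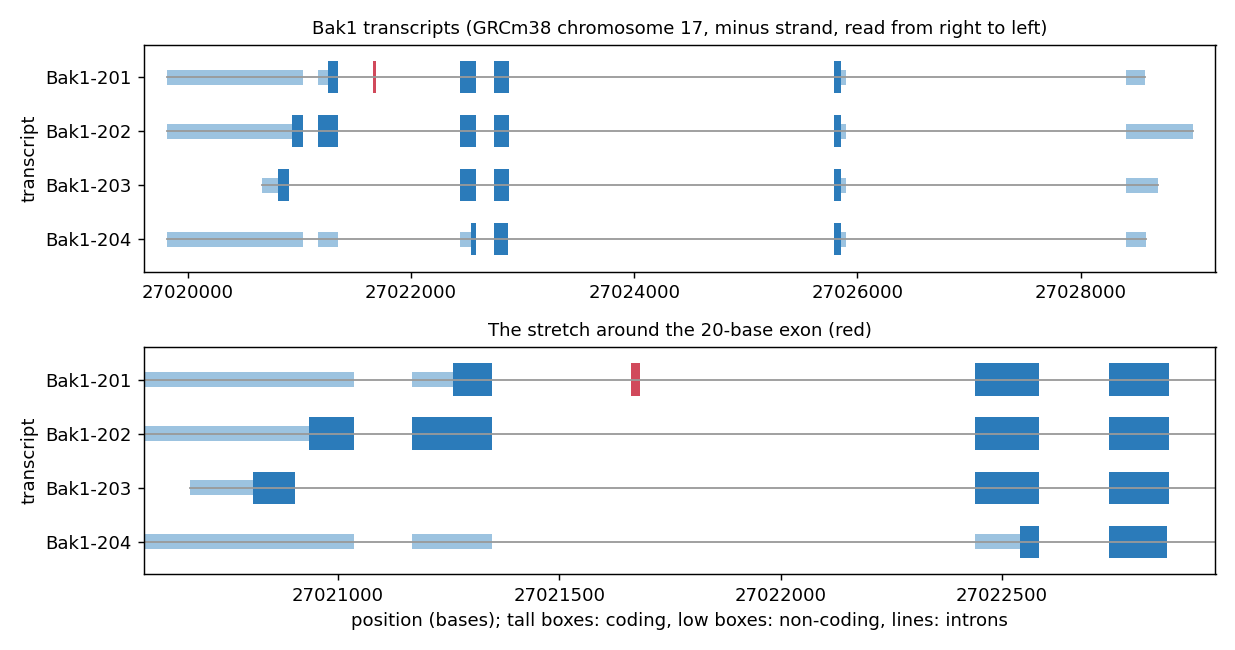
The 4 annotated transcripts of *Bak1* drawn to scale on GRCm38 chromosome 17 (position in bases), as the whole gene above and the stretch around the short exon below; tall boxes are coding, low boxes non-coding, and lines introns. The 20-base exon, in red, is in Bak1-201 alone, whose coding part ends in the next exon.

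Among the BH3-only genes, *Pmaip1* (ENSMUSG00000024521.7; chromosome 18, 66458533 to 66465565, plus strand), which encodes NOXA, a p53 target that binds MCL1, had the widest span. It had the fewest counts of the members, with 119 counts (WT), 164, 72 and 197 counts (Het) and 216, 431 and 238 counts (KO). This gave 0.8003 CPM (WT), 0.965, 0.604 and 1.30 CPM (Het) and 1.63, 3.28 and 1.79 CPM (KO). All KO libraries were above all Het libraries, KO2 stood above the other 2, and WT lay within the Het range. The means were 0.956 ± 0.347 CPM in Het and 2.23 ± 0.908 CPM in KO (SD, n = 3 each). The log2 fold change was 1.22 (standard error 0.369, 95% interval 0.34 to 2.10, edgeR adjusted p = 0.0811), so *Pmaip1* did not pass edgeR's test, while DESeq2 called it (DESeq2 adjusted p = 0.00394). Over the 16 alternatives its adjusted p ranged from 0.00394 to 0.279, the last from glmTreat, and the highest of the others was 0.204 (without KO2). Without KO2 the log2 fold change was 0.83 and without Het3 it was 1.502.

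The same libraries also differed in genes of other cell types. Of the 9 microglia markers, all were tested. All had a positive log2 fold change, beside 49.0% of all genes tested, and all were highest in KO2, beside 13.0%. By edgeR 2 were called, *Cx3cr1* and *Ptprc*, both higher in KO, beside 7.22% of all genes tested that were called in either direction. Neither call was firm: *Ptprc* was not called when any 1 Het or KO library was left out (edgeR adjusted p = 0.0510 to 0.127), nor *Cx3cr1* without any of them other than KO1 (0.0592 to 0.137). All 9 were called higher in KO by DESeq2, as was *Pmaip1*, beside 11.6% of the genes with a DESeq2 adjusted p called in either direction. The summed expression of the list was 53.4 CPM (WT), 53.4, 50.0 and 70.7 CPM (Het) and 72.5, 97.5 and 84.6 CPM (KO), the most abundant being *Csf1r*, and no marker of the list was at 0 in all libraries. The highest Het library and the highest KO library of this sum, Het3 and KO2, were also those of *Pmaip1*; the part of microglia in the values of *Pmaip1* was not tested.

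The other BH3-only genes were more abundant and closer between the groups. *Bad* (ENSMUSG00000024959.13; chromosome 19, 6941861 to 6951899, plus strand), whose protein is held inactive by growth-factor signalling, was at 25.4 CPM (WT), 24.7, 25.8 and 24.7 CPM (Het) and 27.1, 26.5 and 26.7 CPM (KO). The KO libraries were all above the Het libraries, by a log2 fold change of 0.096 (95% interval 0.0070 to 0.18, edgeR adjusted p = 0.144), which did not pass the test. *Bid* (ENSMUSG00000004446.12; chromosome 6, 120891930 to 120916853, minus strand) links death receptors to mitochondria through cleavage by caspase 8. It was at 9.97 CPM in WT, 9.62 to 9.92 CPM in Het and 9.48 to 10.4 CPM in KO, with a log2 fold change of 0.040 (95% interval -0.11 to 0.19). That of *Bid* was 0.010 without KO3 and 0.077 without KO1. *Bbc3* (ENSMUSG00000002083.13; chromosome 7, 16308393 to 16318205, plus strand), which encodes PUMA, another p53 target, was at 18.0 CPM in WT, 17, 16.2 and 16.99 CPM in Het and 16.03, 19.2 and 17.5 CPM in KO. KO1 was below every Het library of *Bbc3*, and the log2 fold change was 0.069 (95% interval -0.10 to 0.24). Leaving out KO2 gave 0.0017 for *Bbc3*, and leaving out KO1 gave 0.13. *Bcl2l11* (ENSMUSG00000027381.16; chromosome 2, 128126038 to 128162547, plus strand) encodes BIM, which is induced when growth factors are withdrawn. It was at 38.6 CPM in WT, 37.4 to 38.8 CPM in Het and 36.5 to 39.7 CPM in KO, with a log2 fold change of 0.0080 (95% interval -0.084 to 0.10). All 5 BH3-only genes had a positive log2 fold change and all 3 survival genes a negative one in edgeR's fit, beside 49.0% positive over all genes tested. None of the 8 was called by edgeR. This split did not hold for family genes outside the 10. The survival gene *Bcl2l2* was higher in KO (log2 fold change 0.19, edgeR adjusted p = 0.0413, under the fold limit), with each KO library above each Het library. Among BH3-only genes outside the 10, *Hrk* (-0.41, called) and *Bik* (-0.028) were negative and *Bmf* (0.035) was positive. The sign of *Mcl1* was the other without Het3 (0.0012) or KO2 (0.0017), and that of *Bcl2l11* without Het1 (-0.0059) or KO2 (-0.019). KO2 was the highest library of 4 of the 10 members, *Bax*, *Bbc3*, *Pmaip1* and *Bcl2l11*, and of 13.0% of all genes tested.

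**Figure D3:**
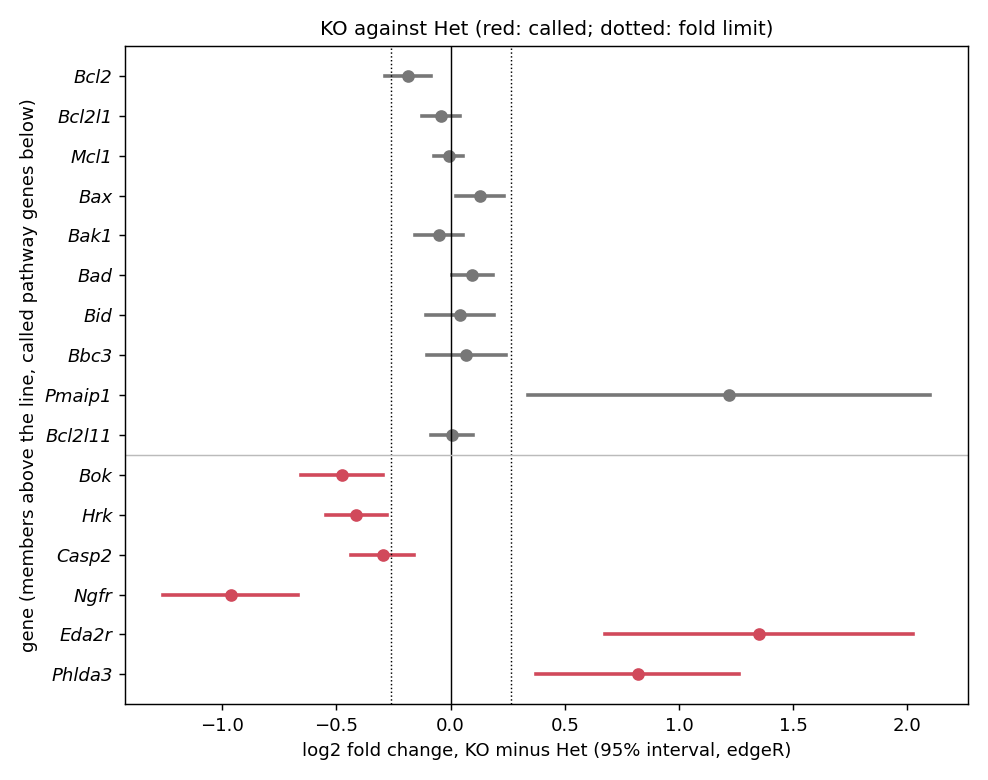
Log2 fold change from Het to KO (horizontal axis) with its 95% interval from edgeR's fit, for the 10 members (above the line) and the 6 pathway genes called (below it). Red genes were called; dotted lines mark the fold limit of 0.26, and *Pmaip1* has the widest interval of the members, from 0.34 to 2.10.

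Several members share exonic bases with a gene on the other strand, *Bak1* with *Ggnbp1* (437 and 177 bases, under 2 gene models of that name), *Bad* with *Gpr137* (524 bases), *Bid* with *Bcl2l13* (628 bases) and *Bcl2* with an antisense transcript (558 bases). The libraries were made with a stranded kit, but neither the strand setting of the counting nor its handling of multi-mapping reads is stated, so these counts may hold reads of the partner gene. The overlap was 18.2% and 7.35% of the exonic bases of *Bak1*, 20.5% of *Bad*, 17.7% of *Bid* and 6.09% of *Bcl2*.

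Levels of different genes can be compared per length, as TPM (counts per kilobase of exon, scaled to 1000000 per library). In Het, *Mcl1* came first with 205 ± 2.20 TPM (SD, n = 3), followed by *Bcl2l1* with 111 ± 1.33 TPM and *Bax* with 73.5 ± 2.24 TPM. *Bak1* had 50.3 TPM, *Bad* 36.4 TPM, *Bbc3* 29.3 TPM, *Bcl2* 24.9 TPM, *Bcl2l11* 17.6 TPM and *Bid* 10.2 TPM, while *Pmaip1* was last with 1.30 ± 0.470 TPM. No pair of neighbours in this order overlapped over the 7 libraries. In each library *Mcl1* was therefore the most abundant member per length, and *Bcl2* the least abundant of the survival genes. Levels in different libraries are compared on CPM, since TPM here carry no TMM scaling. The 3 survival genes summed to 385 CPM (WT), 381, 387 and 393 CPM (Het) and 377, 376 and 370.1 CPM (KO), so that each KO library was below each Het library, while in TPM they overlapped, with KO3 the highest library. The pore formers summed to 64.2 CPM (WT), 63.3, 63.4 and 64.5 CPM (Het) and 66.8, 66.1 and 63.8 CPM (KO), and KO3 lay within the Het range; in TPM, 122 to 125 in Het and 130 to 135 in KO, they did not overlap. The BH3-only genes summed to 92.8 CPM (WT), 89.7, 90.3 and 91.6 CPM (Het) and 90.7, 98.7 and 95.1 CPM (KO), and KO1 lay within the Het range; in TPM, 94.4 to 95.5 in Het and 95.9 to 108 in KO, they did not overlap. Survival genes held 60.9% ± 0.0994 of the members' summed TPM in Het and 59.2% ± 0.645 in KO (SD, n = 3 each), with 60.3% in WT; these sums were not tested.

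Around the family, 82 genes in 6 lists of the cell death pathway were followed, of which 75 were tested. Of these, 2 were called higher and 4 lower in KO, beside the 7.22% called over all genes, and their median log2 fold change was 0.055. The count of 6 became 2 without Het2, Het3 or KO2, where the genes called in all fell from 1445 to 386, 496 and 612, and it was 5 without Het1, 6 without KO1 and 9 without KO3. These are counts, and the genes behind them were not always the 6. Among the other BCL2 family genes, 9 of 14 were tested and 2 called, both lower in KO. *Hrk*, a BH3-only gene of neurons, was at 13.4 CPM (WT), 14.2, 14.4 and 14.5 CPM (Het) and 11.02, 11.1 and 10.2 CPM (KO) (log2 fold change -0.41, standard error 0.0557, edgeR adjusted p = 0.0101). *Bok*, a relative of *Bax* and *Bak1*, was at 10.5 CPM (WT), 12.3, 11.6 and 13.6 CPM (Het) and 8.78, 9.27 and 8.97 CPM (KO) (log2 fold change -0.47, standard error 0.0759, edgeR adjusted p = 0.0158). In both genes each KO library was below each Het library. *Hrk* was not called without Het2 (edgeR adjusted p = 0.0573), nor *Bok* without Het3 (0.0527) or KO2 (0.0507). The 2 most abundant of the list, *Bnip3l* and *Bcl2l13*, had log2 fold changes of -0.0040 and -0.080 and were not called; that of *Bnip3l* was positive without Het2 (0.020), KO2 (0.011) or KO3 (0.022).

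Of the 15 genes of mitochondrial release, the apoptosome and caspases, 1 was called, *Casp2*, the gene of caspase 2. It was at 105 CPM (WT), 87.6, 88.2 and 91.8 CPM (Het) and 71.7, 67.3 and 78.7 CPM (KO), with WT above every other library and KO below Het (log2 fold change -0.30, standard error 0.0578, edgeR adjusted p = 0.0258). It was not called without Het2 (0.0837), Het3 (0.0954), KO1 (0.0588) or KO2 (0.0568). The mitochondrial channel genes *Vdac1* and *Vdac2*, the most abundant of the list, had log2 fold changes of -0.12 and -0.056. None of the 6 tested caspase inhibitors was called. Of these, 3 were at an unadjusted edgeR p below 0.05, beside 29.7% of all genes, and DESeq2 called 1, *Birc3*. The most abundant were *Birc6*, with a log2 fold change of 0.16, and *Xiap*, with 0.22. Without KO1 that of *Birc6* was 0.25 (edgeR adjusted p = 0.0167), under the fold limit, and without KO3 it was 0.10.

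In the death receptor list, 1 of 10 tested genes was called. *Ngfr*, the p75 neurotrophin receptor, was at 93.6 CPM (WT), 87.4, 92.1 and 95.2 CPM (Het) and 46.2, 55.9 and 38.8 CPM (KO), so that KO was at 51.3% of Het (log2 fold change -0.96, standard error 0.123, edgeR adjusted p = 0.00879). Leaving out any 1 library kept this call. It is the most abundant gene of its list, followed by *Cflar*, with a log2 fold change of 0.16, which was not called. That of *Cflar* was 0.084 without KO3 and 0.22 without Het3. DESeq2 also called *Ripk1*, lower in KO. The median log2 fold change of 14 retina markers was -0.032, with 6 of them positive, and 3 were called: *Atoh7* (log2 fold change -0.81, edgeR adjusted p = 0.00783) and *Isl1* (-0.68, 0.00209) were called lower in KO and *Neurod1* (0.32, 0.00558) higher, each also when any 1 Het or KO library was left out. DESeq2 called 1 retina marker higher and 3 lower in KO. For *Pou4f2* (-0.29, edgeR adjusted p = 0.0524), not called by edgeR, each KO library was below each Het library. The part of such cell types in the values of *Ngfr* and *Hrk* was not tested.

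Of the 20 genes of p53 and its targets, 2 were called, both higher in KO, beside 7.22% of all genes tested called in either direction and 4.01% called higher. At an unadjusted edgeR p below 0.05 there were 11, beside 29.7%, and in 12 Het and KO did not overlap, beside 36.3%. A positive log2 fold change was found in 15, beside 49.0% of all genes tested, and 11 had KO2 as the highest library, as did 13.0% of all genes tested. *Eda2r*, a receptor gene, was at 4.63 CPM (WT), 4.96, 4.42 and 6.81 CPM (Het) and 10.2, 19.6 and 11.5 CPM (KO) (log2 fold change 1.35, standard error 0.282, edgeR adjusted p = 0.0314). *Phlda3*, which encodes an inhibitor of AKT, was at 5.15 CPM (WT), 6.88, 5.42 and 6.93 CPM (Het) and 10.4, 14.4 and 9.17 CPM (KO) (log2 fold change 0.82, standard error 0.187, edgeR adjusted p = 0.0398). *Eda2r* was not called in a robust fit (edgeR adjusted p = 0.0505) or without Het1 (0.0717), Het2 (0.112), Het3 (0.0634) or KO2 (0.0567), and *Phlda3* was not called without Het1 (0.0668), Het2 (0.127), Het3 (0.104), KO1 (0.0620) or KO2 (0.0790). DESeq2 called both and also *Cdkn1a*, higher in KO, and *Gadd45a*, lower in KO. In both genes KO2 was the highest library, as it was for the microglia markers, whose part in these values was not tested either. The most abundant of the list, *Btg2* and *Ei24*, had log2 fold changes of 0.081 and 0.013 (-0.017 for *Ei24* without Het1). *Trp53* itself had -0.14 (edgeR adjusted p = 0.0259), under the fold limit, with each KO library below each Het library. None of the 15 other inducers of BH3-only genes was called. Of these, 6 were at an unadjusted edgeR p below 0.05, beside 29.7% of all genes, and DESeq2 called 1, *Trib3*. The most abundant, *Foxo3* and *Mapk8*, had log2 fold changes of 0.22 and -0.14.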

How the data were processed

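Bulk RNA-seq counts of 7 libraries were used. Per the labels and methods, the authors aligned reads to GRCm38 (mm10) with STAR through rMATS-turbo, counted per gene by featureCounts, and the deposited values are counts without normalization. Totals ran from 120593979 to 171117305. The members and lists were chosen with earlier results of these data known.

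The fit used edgeR 4.0.16 under R 4.3.3 (filterByExpr, TMM, glmQLFit, glmQLFTest, a mean per genotype, KO minus Het), with Benjamini-Hochberg adjustment over 20019 genes. It was tested on simulated data. The simulated counts varied less between libraries than these, so that test does not give the rate of false or missed calls here. The standard error was the log2 fold change over the square root of F. TPM and coordinates used GENCODE M21, matched by identifier; the methods name an earlier release. Named were the members, *Ptbp1*, *Ptbp2*, and of each pathway list the called genes (up to 5) and the 2 most abundant, of marker lists of other cell types the most abundant; others were chosen after their values were seen. Replicates differed by 13.3 to 50.5 times the counting variance. Alternatives were DESeq2 1.42.0, RLE and upper-quartile normalization, other filters, the 6 Het and KO libraries, a replicate block, each library left out, adjusted p alone, glmTreat, a robust fit and coding transcripts for TPM. Splicing was not analysed here.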

Additional observations from a re-analysis of the deposited data

How the results depend on the processing

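Under 16 alternatives, 8 of the 10 members were not called by any. DESeq2 called 1 member (*Pmaip1*) and an adjusted p alone called 1 (*Bcl2*). The direction was kept in 8 members. *Mcl1* changed sign without Het3 (0.0012) and without KO2 (0.0017), and *Bcl2l11* without Het1 (-0.0059) and without KO2 (-0.019). *Ei24* changed sign without Het1 (-0.017), and *Bnip3l* without Het2 (0.020), without KO2 (0.011) and without KO3 (0.022). Leaving out 1 library at a time gave log2 fold changes of -0.016 to 0.0017 for *Mcl1*, -0.019 to 0.042 for *Bcl2l11*, -0.017 to 0.051 for *Ei24* and -0.042 to 0.022 for *Bnip3l*. The cause of these was not tested.

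Pathway genes called numbered 6 and became 11 with DESeq2, 14 with an adjusted p alone and 1 with glmTreat, which tests against the fold limit itself. Leaving out a library gave 2 to 9 pathway genes, 0 members throughout, and 386 to 1674 genes in all, beside 1445 with all libraries; the lowest of these totals were without Het2 (386), Het3 (496) and KO2 (612). All genes called numbered 2221 with an adjusted p alone and 217 with glmTreat. Other scalings moved the median log2 fold change by less than 0.1. With exons of protein-coding transcripts alone, survival genes held 58.3% of the members' TPM in Het, and the order of the 10 members was the same.

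The labels do not say whether the replicate numbers pair the Het and KO libraries. The deviations of same-numbered Het and KO libraries correlated above 0.1 in 1 of 3 pairs (-0.197, 0.159 and -0.0739). Pairs of different numbers ran from -0.304 to 0.262. Since deviations were taken from the mean of each genotype, these correlations depend on one another and cannot tell whether the libraries are paired. With the number as a replicate block, 1268 genes, 5 pathway genes (all lower in KO) and 0 members were called; *Eda2r* (edgeR adjusted p = 0.0582) and *Phlda3* (0.0832) were not called and *Gadd45a* was. *Eda2r* was not called in the robust fit either (0.0505). *Pmaip1* had the fewest counts of the members (72 to 431) and a spread between libraries of 0.347 CPM (SD) around 0.956 in Het and 0.908 around 2.23 in KO.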

Other observations

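Marker genes of tissues next to the retina varied between libraries. The 9 tested of 10 muscle markers were all highest in Het1, where their sum was 264 CPM, against 4.64 to 5.44 CPM in the other 6 libraries, and the most abundant was *Myh3*. The 6 tested of 7 pigmented cell markers were also all highest in Het1, with a sum of 531 CPM against 21.1 to 64.6 CPM elsewhere and *Pmel* as the most abundant. No gene of either list was called by edgeR or by DESeq2, with 7 muscle and 2 pigmented cell markers at an unadjusted edgeR p below 0.05, beside 29.7% of all genes.

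The 7 blood cell markers, led by *Hbb-bs*, summed to 339 CPM (WT), 289, 189 and 530.1 CPM (Het) and 37.1, 24.5 and 298 CPM (KO). None of them was called by edgeR, with 2 at an unadjusted edgeR p below 0.05, beside 29.7% of all genes, and DESeq2 called 1, lower in KO. The lens markers, led by *Cryaa*, summed to 15.3 CPM (WT), 24.8, 58.6 and 81.4 CPM (Het) and 2.91, 6.82 and 53.4 CPM (KO), and *Cryaa* gave most of it in the Het libraries. Their median log2 fold change was 0.016, with 4 of the 7 tested positive, and *Cryba1*, *Crybb1*, *Crygc* and *Bfsp1* were highest in KO3, while 1, *Foxe3*, was called, lower in KO, though not without Het2 (edgeR adjusted p = 0.0826), Het3 (0.0714), KO1 (0.0676), KO2 (0.0974) or KO3 (0.0689). The 8 vessel markers summed to 419 CPM (WT), 437, 412 and 437 CPM (Het) and 596, 499 and 521 CPM (KO); most of this was *Kdr*, called higher in KO. The other markers mostly went the other way: 6 of the 8 had a negative log2 fold change, the median was -1.43, and *Pdgfrb* was called lower in KO. *Kdr* was not called without Het2 (edgeR adjusted p = 0.0837) or Het3 (0.0746), nor *Pdgfrb* without Het2 (0.0744), Het3 (0.0860), KO1 (0.0551) or KO2 (0.0638). KO1 and KO2 were thus the libraries with the least blood cell and lens RNA, while *Pmaip1*, *Eda2r* and *Phlda3* were highest in KO2. Any part of these tissues in those values was not tested.

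After the values were seen, the 3 tested genes closest to *Pmaip1* in centred log2 CPM over the 7 libraries were also found. They were *Itgb2*, a leukocyte integrin, *Eda2r* and *Mpeg1*, a macrophage gene, at root mean square distances of 0.160, 0.161 and 0.236, where *Pmaip1* varied by 0.746 around its mean. *Eda2r* and *Mpeg1* were called higher in KO by edgeR, while *Itgb2* was not (edgeR adjusted p = 0.0887, log2 fold change 0.97). *Mpeg1* was not called without Het1 (edgeR adjusted p = 0.0714), Het2 (0.108), KO2 (0.0876) or KO3 (0.0509), nor *Eda2r* without Het1 (0.0717), Het2 (0.112), Het3 (0.0634) or KO2 (0.0567).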
